A study of Mus musculus with 12 samples.

Results

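MAX binding sites that were listed only after I-BET treatment and that lay far from genes were described in RAW264.7 cells, a mouse monocyte-derived line whose source is labelled bone marrow. The 4 deposited MAX peak lists were merged, and a merged region was kept when only the I-BET list held a peak in it and when it lay over 10 kb from the extent of every protein-coding gene. This gave 4518 regions of 37124 merged MAX regions. The regions were thus chosen by presence in the MAX lists and by distance to genes, and both are given as description with no test.

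MAX and MYC sites were found by ChIP-seq, which sequences DNA pulled down with an antibody after crosslinking, with 1 library per antibody and treatment. The cells were untreated, or were kept for 4 h with the cytokine RANKL at 50 ng/ml, with the BET inhibitor I-BET at 500 nM, or with both. RANKL starts the differentiation of this line towards osteoclasts, the cells that resorb bone. All groups are the same cell line in culture, and no group carries a genetic change by the labels. The lists hold positions and the authors' peak scores and no expression, so the labelled cell type could not be checked against marker genes. No comparison between treatments has a replicate check. Peaks numbered 8839 for MAX without treatment, 10889 under RANKL, 36785 under I-BET and 6307 under both, and 312, 299, 136 and 11 for MYC in the same order. Read depth is not given in the peak lists, so its part in the length of the I-BET list was not tested.

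MAX is the common partner of a family of transcription factors. It pairs with MYC, which activates genes of growth and of ribosome production, with the MXD, MNT and MGA proteins, which repress, and with itself, and the pairs bind the E-box CACGTG. BET proteins bind acetylated histones at promoters and enhancers, and I-BET compounds occupy the pockets they use for this. Sequence far from protein-coding genes holds enhancers, which in macrophages are often bound by PU.1, C/EBP and AP-1 factors, and it also holds long non-coding RNA genes and the small RNA genes read by RNA polymerase III.

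Sequences could be shown for regions that cover the start of an annotated gene. The RefSeq promoter table (GRCm38.p6, the build of the peak lists) gives 32851 windows of 27025 genes, each from 250 bases before to 50 bases after a start. Of these, 161 windows of 149 genes touched 144 of the 4518 regions (3.19%), and 53 windows were fully covered. All are starts of non-coding genes, since protein-coding genes lie further away. Sequence of the regions away from annotated starts was not analysed here. Both strands were searched for CACGTG, for the looser E-box CANNTG, which includes CACGTG, for the AP-1 motif TGANTCA and for the PU.1 motif GAGGAAGT. In the windows below, which run 5′ to 3′ along the gene's strand, capitals mark CACGTG, the AP-1 motif and GAGGAAGT. The first 3 windows were fully covered by a highly scored region and have no CACGTG. The next pair are windows with CACGTG. The last pair are covered by far regions present in all 4 MAX lists and are shown for contrast. Both hold CACGTG, which 36 of 147 windows on other far MAX regions held (24.5%), so the pair is not typical of them.
Morrbid, chr2:128429302-128429601, minus strand: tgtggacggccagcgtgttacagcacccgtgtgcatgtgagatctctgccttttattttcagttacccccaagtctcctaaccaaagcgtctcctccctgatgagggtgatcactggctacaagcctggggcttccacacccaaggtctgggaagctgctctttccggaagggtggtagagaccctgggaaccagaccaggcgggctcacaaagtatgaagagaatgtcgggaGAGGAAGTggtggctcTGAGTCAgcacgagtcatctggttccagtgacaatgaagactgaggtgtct
D130051D11Rik, chr15:85634346-85634645, plus strand: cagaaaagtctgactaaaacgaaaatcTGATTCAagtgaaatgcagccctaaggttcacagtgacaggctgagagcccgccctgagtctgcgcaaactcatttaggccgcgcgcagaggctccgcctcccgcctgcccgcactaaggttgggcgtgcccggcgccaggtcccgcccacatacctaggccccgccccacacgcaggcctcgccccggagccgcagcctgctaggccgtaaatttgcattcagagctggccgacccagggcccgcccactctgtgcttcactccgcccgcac
A930006K02Rik, chr16:91464854-91465153, plus strand: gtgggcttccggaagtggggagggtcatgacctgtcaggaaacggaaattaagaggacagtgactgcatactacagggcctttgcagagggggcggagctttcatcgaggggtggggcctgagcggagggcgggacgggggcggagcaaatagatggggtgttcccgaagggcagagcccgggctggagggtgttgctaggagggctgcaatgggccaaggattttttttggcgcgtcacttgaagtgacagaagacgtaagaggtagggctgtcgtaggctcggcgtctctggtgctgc
Gm26797, chr9:122310879-122311178, minus strand: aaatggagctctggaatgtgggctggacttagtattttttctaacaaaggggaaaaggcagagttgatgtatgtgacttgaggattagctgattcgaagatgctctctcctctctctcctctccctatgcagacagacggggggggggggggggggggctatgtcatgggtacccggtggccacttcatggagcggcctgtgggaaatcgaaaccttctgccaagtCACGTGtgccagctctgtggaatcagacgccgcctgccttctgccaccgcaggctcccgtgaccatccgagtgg
A530010L16Rik, chr8:122762712-122763011, minus strand: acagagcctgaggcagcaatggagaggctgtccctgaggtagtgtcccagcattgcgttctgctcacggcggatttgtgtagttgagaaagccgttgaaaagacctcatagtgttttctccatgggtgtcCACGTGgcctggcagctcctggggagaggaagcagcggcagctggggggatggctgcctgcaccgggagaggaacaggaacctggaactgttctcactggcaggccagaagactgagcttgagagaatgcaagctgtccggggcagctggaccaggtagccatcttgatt
Lncpint, chr6:31218425-31218724, minus strand: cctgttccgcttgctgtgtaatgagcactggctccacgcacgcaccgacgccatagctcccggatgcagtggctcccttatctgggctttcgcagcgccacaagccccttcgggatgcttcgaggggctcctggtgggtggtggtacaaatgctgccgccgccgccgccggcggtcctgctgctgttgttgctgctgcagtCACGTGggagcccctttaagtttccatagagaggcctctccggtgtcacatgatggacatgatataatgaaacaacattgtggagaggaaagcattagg
Gm32287, chr2:167777663-167777962, minus strand: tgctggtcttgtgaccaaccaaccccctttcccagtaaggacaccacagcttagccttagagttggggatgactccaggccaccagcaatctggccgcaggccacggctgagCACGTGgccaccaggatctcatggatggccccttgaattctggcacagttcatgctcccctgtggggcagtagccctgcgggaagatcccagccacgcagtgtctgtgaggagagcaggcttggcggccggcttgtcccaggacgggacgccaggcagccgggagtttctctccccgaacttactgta

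The Morrbid window holds GAGGAAGT just before, and a TGANTCA match across, the annotated start of this long non-coding RNA, which in myeloid cells represses its neighbour Bcl2l11, the gene of the death-promoting protein BIM. Its region ranked 9791 among the 36785 I-BET peaks by score, where rank 1 is the highest. The D130051D11Rik window holds a TGANTCA match, and its region ranked 3986. The A930006K02Rik window, 19.7 kb from the interferon receptor gene Ifnar1, holds none of the 3 marked motifs, and its region ranked 8267. The Gm26797 window was covered over 175 of its 300 bases by a region of rank 6811, and the A530010L16Rik window was fully covered by a region of rank 12833. The Lncpint and Gm32287 windows lie in I-BET peaks of rank 761 and rank 1326, higher in the list than any of the 4518 regions, whose first is at rank 2673.

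CACGTG was found in 13 of the 161 windows on I-BET-only far regions, which is 8.07% (exact Clopper-Pearson 95% interval 4.37 to 13.4%, counting error only). Of all promoter windows 7.15% held it. On the other far MAX regions, each listed in at least 1 treatment other than I-BET alone, 36 of 147 windows held it (24.5%, 17.8 to 32.3%), and of 5694 far windows with no MAX peak 283 did (4.97%, 4.42 to 5.57%). The share on I-BET-only far regions was thus close to that of all windows, and its interval did not overlap that of the other far MAX regions. A window counted when a region touched it, so a motif can lie outside the region. How fully each kind of region covers its windows was not compared. Far regions shared by I-BET and another list also had higher-ranked I-BET peaks, with a median rank of 10376 against 25012. The part of rank in the motif shares was not tested. Windows of 1 gene or of neighbouring genes can overlap one another, so they are not independent and no test was run. Counted by gene, added after the data were seen, CACGTG was in 13 of 149 genes on I-BET-only far regions (8.73%, 4.73 to 14.5%). On other far MAX regions it was in 34 of 129 genes (26.4%, 19.0 to 34.8%). CANNTG was in 70.2% of the windows on I-BET-only far regions (62.5 to 77.1%), in 72.3% of all windows, in 83.0% of those on other far MAX regions and in 80.9% of far windows with no MAX peak. TGANTCA was in 14.3% of the windows on I-BET-only far regions (9.28 to 20.7%), in 7.81% of all windows, in 19.0% of those on other far MAX regions and in 10.6% of far windows with no MAX peak, the last 2 within the interval. GAGGAAGT was in 10.6% (6.27 to 16.4%), against 3.20% of all windows, 9.52% on other far MAX regions and 3.30% of far windows with no MAX peak. Counted by gene, it was in 14 of 149 genes on I-BET-only far regions (9.40%, 5.23 to 15.3%). By gene it was in 3.69% of all genes with windows and in 10.9% of those on other far MAX regions. Median GC content was 54.0% in windows on I-BET-only far regions, 52.7% on other far MAX regions and 46.3% in far windows with no MAX peak, and its part in the motif shares was not tested.

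Of the 37124 merged MAX regions 6119 were far from genes, and 4518 of these (73.8%) were listed with I-BET only, against 66.9% of all merged regions. Since list membership defined the group, nothing is read from these shares. The I-BET-only share was 75.4% of 14683 regions inside genes, 76.3% of 4214 regions at 1 to 10 kb from a gene, and 49.7% of 12108 regions within 1 kb of a gene end. Far regions made up 1025 of 8492 regions listed in untreated cells (12.1%), 1285 of 10451 with RANKL (12.3%), 5960 of 36643 with I-BET (16.3%) and 626 of 6051 with both (10.3%). With the combined treatment alone 4 far regions were listed, with RANKL alone 76 and without treatment alone 43. Far regions present in all 4 lists numbered 450, and those shared by I-BET and RANKL alone numbered 376.

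**Figure D1:**
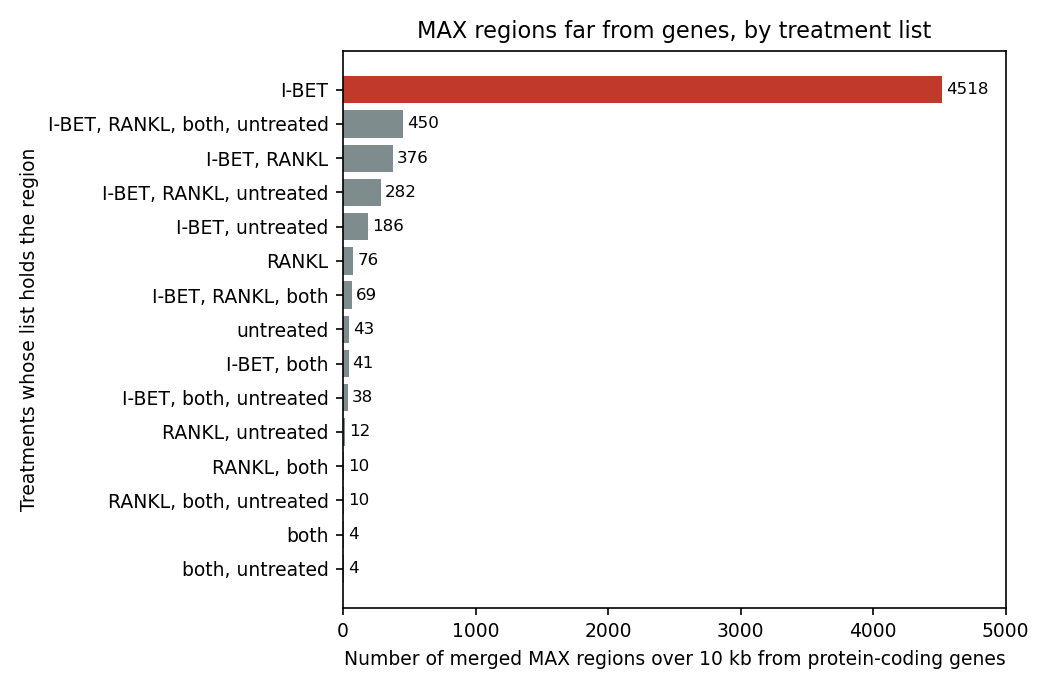
Number of merged MAX regions over 10 kb from protein-coding genes (horizontal axis) for each combination of treatment lists that holds the region (vertical axis). The I-BET-only bar stands at 4518, and the next, for regions present in all 4 lists, at 450.

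The I-BET-only far regions sat low in the I-BET list. Their median rank was 25012 of 36785, with quartiles at 18880 and 30924, and 1055 of them (23.4%) were above the list's median score. The score is the authors' own value for a peak and is used here only within a list. The median score was 111 against 168 for all I-BET peaks, and the median width was 347 bp against 480 bp. I-BET-only regions inside genes were alike in these values, with a median rank of 24906 and a median width of 364 bp. Those at gene ends were higher and wider, at rank 19062 and 547 bp. The 1442 far I-BET peaks that another list shared had a median rank of 10376, and those in all 4 lists had one of 4901. When the I-BET list was shortened to its 10889 highest peaks, the size of the RANKL list, 187 of 1796 far regions (10.4%) remained I-BET-only.

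Each of the 4518 regions is a single I-BET peak that joins calls from 3 call sets. What these sets are is not said by the labels. The nearest peak of any other MAX list lay at a median of 23.0 kb. It was within 1 kb for 324 regions (7.17%), within 10 kb for 1335 (29.5%), and beyond 100 kb for 732 (16.2%). The medians were 27.6 kb to the RANKL list, 33.9 kb to the untreated list and 48.4 kb to the list for both agents, an order that follows the lengths of the 3 lists.

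The highest-scored region lay 14.4 kb from Abcb9, a lysosomal peptide transporter gene, on the long non-coding RNA gene Gm34086. It spans chr5:124046705-124047485, with a score of 801 and a rank of 2673. The next lay 33.3 kb from Cd9, which encodes a tetraspanin of the cell surface, with a score of 722.3, and 17.9 kb from the ubiquitin-conjugating gene Ube2v1, with a score of 722. Among the 20 highest were also regions 42.4 kb from the lactate transporter gene Slc16a1, 11.6 kb from the cytokine signalling inhibitor gene Socs3, 19.3 kb from Cd83, a marker of mature dendritic cells, 52.5 kb from Wnt7b, which encodes a WNT ligand, 24.7 kb from Idh2, a mitochondrial dehydrogenase gene, and 15.8 kb from Ugcg, which encodes the first enzyme of glycosphingolipid synthesis. The other 11 lay nearest to Tbc1d1, Gm2808, Acbd3, Mid1, Ubr2, Lrrc28, Skor1, Tbl1x, Ttc17, Ercc1 and Gm52481, at 10.8 to 154 kb, with scores from 516.3 to 699. These top regions are spread over the genome and are next to genes of many kinds.

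Wide regions were few, with 96 (2.12%) over 1000 bp. The widest, 1818 bp, lay in Morrbid at 176 kb from Bcl2l11, with a rank of 15746. A region of 1747 bp lay 93.0 kb from Id2, which encodes an inhibitor of bHLH factors. Regions of 1765 bp and 1612 bp lay side by side next to the organic anion transporter gene Slco4a1. The other 6 of the 10 widest, of 1586 to 1773 bp, lay nearest to Sec14l1, Ak4, Fblim1, Ppp2r2a, Bcor and Cdkn2aipnl.

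The distance to the nearest protein-coding gene ran from 10002 bp to 1410 kb, with a median of 28.0 kb and quartiles at 16.3 and 53.6 kb. It exceeded 100 kb for 552 regions (12.2%). Just inside the 10 kb limit were regions 10002 bp from Tmcc2 (rank 29386), 10010 bp from the chromatin gene Mta3 (rank 18448) and 10011 bp from the Toll-like receptor kinase gene Irak1 (rank 21080). Just outside it were I-BET-only regions 9996 bp from Armh1 (rank 31570), 9994 bp from Arid5a (rank 27642) and 9994 bp from Plekhf2 (rank 30773). Regions on either side of the limit thus had overlapping ranges of rank. The farthest lay 1410 kb from Cntnap5b, 1250 kb from Rpia inside the immunoglobulin kappa locus, and 1160 kb from Zeb2. The first of these was 146 bp from a peak of another list.

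Density dropped with distance. Between protein-coding genes, sequence over 10 kb from any of them came to 1403 Mb and held 3.2 I-BET-only regions per Mb. At 10 to 25 kb from a gene there were 9.89 per Mb, at 25 to 50 kb 6.48, at 50 to 100 kb 3.06, at 100 to 250 kb 1.34, at 250 to 500 kb 0.41 and beyond 500 kb 0.0897. Far regions listed in another treatment also thinned out, from 3.26 to 0.0555 per Mb over the same bins. There were 3.03 I-BET-only regions per other far region at 10 to 25 kb and 2.24 at 250 to 500 kb. The last bin held 21 I-BET-only regions. The median rank in the I-BET list stayed between 24548 and 26274 in the bins up to 500 kb.

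**Figure D2:**
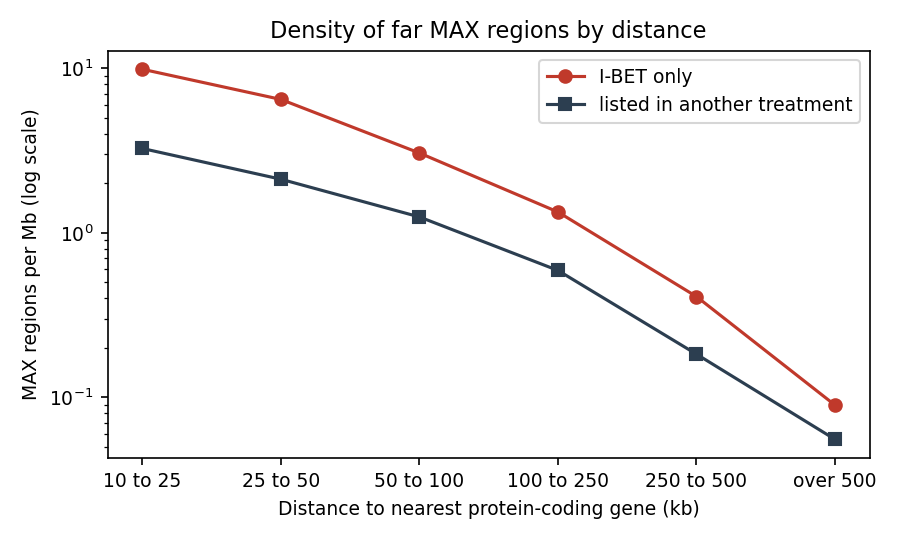
MAX regions per Mb of sequence (vertical axis, log scale) by distance to the nearest protein-coding gene in kb (horizontal axis), for regions listed with I-BET only and for far regions listed in another treatment. Both lines drop with distance, the I-BET-only line from 9.89 to 0.0897 per Mb.

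Across chromosomes the density was highest on chromosome 11, at 6.41 per Mb with 324 regions, on chromosome 2, at 6.1 with 472, and on chromosome 19, at 5.9 with 135. It was lowest among autosomes on chromosome 14, at 1.99 per Mb, and on chromosome X it was 0.615 with 69 regions. Of the 15 regions on chromosome Y, 14 lay nearest to Gm52481 and beyond it, where no further protein-coding gene follows in the table. The other far MAX regions were also densest on chromosomes 19, 2 and 11, at 2.55, 2.2 and 1.96 per Mb. On chromosome X they came to 0.163 per Mb.

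The regions lay in a minority of the gaps between neighbouring protein-coding genes. Of 9179 gaps that have sequence over 10 kb from both flanking genes, 1964 (21.4%) held 1 or more. In 1032 gaps there was 1 region, in 730 there were 2 to 4, and in 202 there were 5 or more. The 202 gaps held 1572 of the regions (34.8%). When regions within 10 kb of each other were joined into chains, 2290 (50.7%) were in chains of 2 or more and 59 chains had 5 or more. Of the 4518 regions, 2403 (53.2%) lay in gaps that also held a far MAX region from another list. Far MAX regions from other lists lay in 977 of the 9179 gaps. Gaps differ in length, and the part of length in these counts was not tested.

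The gap with most regions lies between Gas8 and Rhou on chromosome 8 and held 36, with no MAX region from any other list. It contains the array of 5S ribosomal RNA genes, which RNA polymerase III reads to make the smallest RNA of the large ribosomal subunit. Of the 36 regions, 33 overlapped an annotated 5S gene and 2 a pseudogene. The 48 annotated 5S genes of the gap are 119 to 121 bp long and span 83.3 kb at chr8:123538784-123622046, with a median step of 1698 bp from gene to gene. The regions were spaced alike, with a median step of 1760 bp. Scores ran from 56 to 252 with a median of 102, and widths from 271 to 604 bp with a median of 416.5 bp. Counting regions closer to Gas8 too, 38 of the 5S genes had an I-BET MAX peak, and 0 had one in the untreated, RANKL or combined lists. No MYC peak of any treatment lay on the 36 regions. The copies are nearly identical, and the authors' placement of reads that match several copies is not given in the sources used here. Input over the array was not analysed here, so the part of copy number and read placement in these peaks was not tested.

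**Figure D3:**
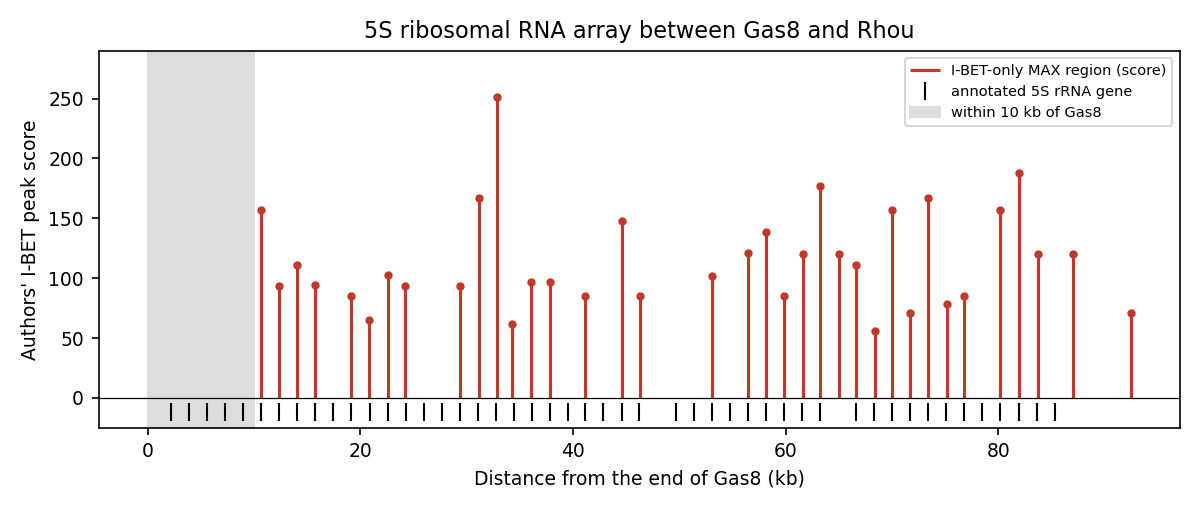
I-BET-only MAX regions of the gap between Gas8 and Rhou by distance from the end of Gas8 in kb (horizontal axis) and the authors' I-BET peak score (vertical axis), with ticks below for annotated 5S ribosomal RNA genes. The 36 regions step along the array at a median of 1760 bp, with scores from 56 to 252, and the grey band marks the 10 kb next to Gas8 that the distance rule leaves out.

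Transfer RNA genes, also read by RNA polymerase III, showed another pattern. Of 207 tRNA genes over 10 kb from protein-coding genes, 18 (8.7%) were on an I-BET-only region and 32 on a far MAX region of another list pattern. The I-BET list held a peak on 49 of the 207, the untreated list on 18, the RANKL list on 20 and the list for both agents on 8. The 16 I-BET-only regions on tRNA genes ranked from 8318 to 34786, with a median of 22044. The RNase P RNA gene Rprl3 also carried an I-BET-only region. Among 733 snoRNA genes far from protein-coding genes 1 was on an I-BET-only region, and among 491 snRNA genes 6 were. The 5S genes thus differed from tRNA genes in having no peak in the other 3 lists, a description of these lists that was not tested.

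The second gap lies between Cebpb and Ptpn1 on chromosome 2 and spans 240 kb. Cebpb encodes C/EBPβ, a transcription factor of macrophages, and Ptpn1 a tyrosine phosphatase. Far MAX regions there numbered 5 without treatment, 7 under RANKL, 39 under I-BET and 4 under both, and 31 of them were I-BET-only. Between Irf2bp2, which encodes a co-repressor partner of IRF2, and Tomm20, a gene of the mitochondrial import receptor, there were 8, 8, 34 and 4 in the same order, with 24 I-BET-only. Of these, 15 lay on the long non-coding RNA gene Gm31718. Between Atf3, a stress-induced transcription factor gene, and Nenf there were 8, 7, 27 and 5, with 19 I-BET-only. Between Haao and Zfp36l2, which encodes an RNA-binding protein that destabilises mRNA, there were 8, 8, 28 and 4, with 18 I-BET-only. Each of these 4 gaps thus held far MAX regions without treatment as well.

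Between Bcl2l11 and Spdye4c there were 1, 3, 24 and 1 far MAX regions in the order untreated, RANKL, I-BET and both, and 21 were I-BET-only. Morrbid held 15 of these. Between Olfm1 and Ppp1r26 there were 3, 3, 25 and 2, with 22 I-BET-only. Between Klf14 and Mkln1, the gap with the p53-induced long non-coding RNA gene Lncpint, there were 6, 7, 26 and 5, with 19 I-BET-only, of which 6 lay on Lncpint. The gaps from Arf6 to Gm46353, from Saraf to Dusp4 and from Smim20 to Rbpj, the gene of the nuclear effector of Notch, held 16 each.

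**Figure D4:**
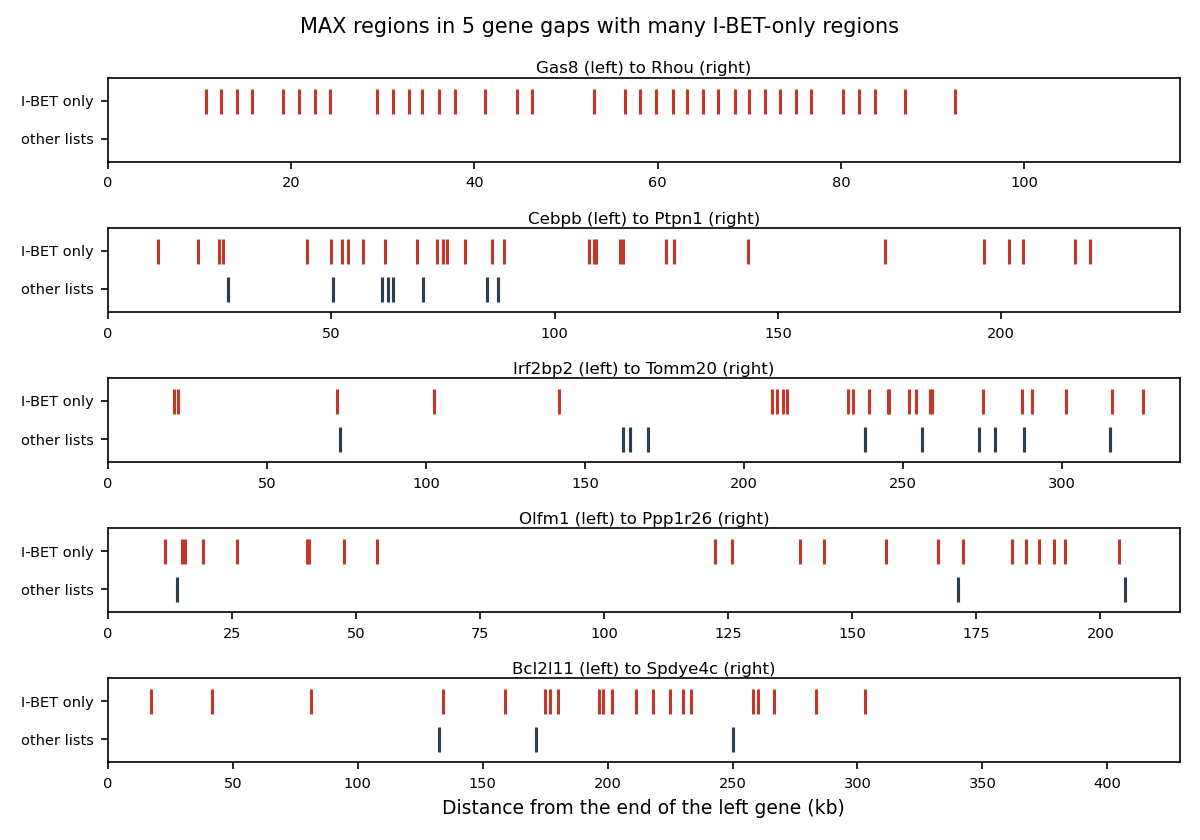
Position of each far MAX region in 5 gaps with many I-BET-only regions, as distance from the end of the left-hand gene in kb (horizontal axis of each panel), with I-BET-only regions in the upper row and regions present in another list in the lower row. The gap from Gas8 to Rhou has an empty lower row, and the gap from Cebpb to Ptpn1 has 31 marks above and 8 below.

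Non-coding genes of the table overlapped 1349 of the 4518 regions (29.9%, 28.5 to 31.2%), and long non-coding RNA genes 1147 (25.4%). The same shares of other far MAX regions and of far sequence were not computed, so nothing is read from these. Of 5742 long non-coding RNA genes over 10 kb from protein-coding genes, 580 (10.1%) were on an I-BET-only region and 293 (5.1%) on another far MAX region. The I-BET list had a peak on 732 of them, the untreated list on 201, the RANKL list on 237 and the list for both agents on 136. The 1016 non-coding genes with an I-BET-only region mostly had 1 (763 genes), and 17 had 5 or more. Morrbid and Gm31718 led with 15 each, followed by 2210408F21Rik and Gm13373 with 7 each. The 10 highest-ranked regions on a non-coding gene were those on Gm34086, on Gm11476 and Gm31619, on Gm52815, on the pseudogene Gm24223, on 2900024J01Rik, D130051D11Rik, Gm36486, Gm51701 and Gm46609, and on the transcribed pseudogene Gpr137b-ps. Gm51701 lies 36.3 kb from the chemokine receptor gene Ccr1, and Gm36486 lies between Fgd2 and the kinase gene Pim1.

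Protein-coding genes within reach were described by lists of genes with a known role. A gene was counted when an I-BET-only far region lay within 100 kb of its extent. Of all 21887 protein-coding genes 5682 (26.0%) were counted. The lists were chosen with earlier results of these data known, a few genes stand on more than 1 list, and gene spacing sets how much far sequence a gene has, so the number of regions per Mb of far sequence within 100 kb is given beside each share. That density was 6.38 per Mb around all protein-coding genes.

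Regulators of myeloid cells had the highest share, 21 of 30 genes (70.0%), and 32.0 regions per Mb. Cebpb had 18 I-BET-only regions within 100 kb, where far MAX regions numbered 5 without treatment, 7 under RANKL, 26 under I-BET and 4 under both. Irf8, which encodes a factor needed for monocyte development, had 12, with far MAX regions numbering 2, 2, 14 and 1. Cebpa, the gene of another C/EBP factor of early myeloid cells, had 7, with 1, 3, 10 and 0. Egr2 had 6, and Runx1, Batf3 and Nr4a1 had 5 each. For Nr4a1, an orphan nuclear receptor gene of patrolling monocytes, no far MAX region was listed in the other 3 treatments. Egr1 had 4, Bach1, Id2 and Klf2 had 3 each, Batf, Etv6 and Maf had 2 each, and Fli1, Gata2, Irf4, Klf4, Myb and Zeb2 had 1 each. As for Nr4a1, the other 3 treatments listed no far MAX region for Egr1, Id2, Etv6, Maf, Gata2, Irf4, Myb and Zeb2. The far MAX regions listed in another treatment were also dense around this list, at 11.9 per Mb against 2.19 around all genes.

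Osteoclast genes were counted in 19 of 37 cases (51.4%), with 26.2 regions per Mb. Fos, an AP-1 gene that osteoclasts need, had 15, in a neighbourhood with 5 far MAX regions without treatment, 11 under RANKL, 26 under I-BET and 1 under both. Tnfrsf1a, a receptor gene for TNF, had 9. Fosl2 and Jdp2, further AP-1 family genes, had 8 and 7. Fos and Jdp2 are neighbours and can share regions. Nfatc1, the master regulator gene of osteoclasts, had 2, with far MAX regions numbering 3, 5, 7 and 2, and Tnfrsf11a, the gene of the receptor for RANKL, had 2, with 0, 0, 2 and 0. Both of these were named after their values were seen.

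Macrophage identity genes were counted in 22 of 40 cases (55.0%), with 18.5 regions per Mb. The Fc receptor genes Fcgr3 and Fcgr4, which share the same neighbourhood, had 5 each, and the cathepsin genes Ctsb and Ctsd had 3 each. Genes of the NF-κB pathway and of inflammation were counted in 25 of 41 cases (61.0%), with 19.0 per Mb. Socs3 had 8, Nfkbia, the gene of the inhibitor IκBα, had 5, and the neighbouring chemokine genes Ccl3 and Ccl4 had 4 each. Interferon and antigen presentation genes were counted in 15 of 44 cases (34.1%), with 19.9 per Mb. The receptor genes Ifnar1, Ifngr2 and Ifnar2, which lie in 1 cluster, had 8, 7 and 6, and the transcription factor gene Irf1 had 6.

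Cell cycle and replication genes were counted in 21 of 32 cases (65.6%), with 25 regions per Mb. The other far MAX regions came to 6.51 per Mb there, against 2.19 around all genes. Ccnd1, which encodes cyclin D1, had 9 I-BET-only regions, with far MAX regions numbering 1 without treatment, 1 under RANKL, 11 under I-BET and 2 under both. The cell cycle inhibitor gene Cdkn1a had 6, E2f2 had 5, and Rrm2, which encodes a subunit of ribonucleotide reductase, had 4. Ribosome biogenesis genes were counted in 9 of 35 cases (25.7%), close to the 26.0% of all genes, though their density of 24.6 per Mb was above the 6.38 of all genes. Polr1b and Polr1a, which encode the largest subunits of RNA polymerase I, had 5 and 4, Tcof1 had 4 and Ncl had 3. Far sequence around this list came to 1.06 Mb, so the density rests on 26 regions. The other far MAX regions came to 2.84 per Mb there, on 3 regions.

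MYC and MAX network genes were counted in 4 of 13 cases (30.8%), with 12.7 regions per Mb. Mxi1, the gene of a repressive partner of MAX, had 5, Mlx and Myc had 2 each and Max had 1. Around Myc the far MAX regions numbered 3 without treatment, 3 under RANKL, 5 under I-BET and 2 under both. E-box and circadian factors were counted in 8 of 24 cases (33.3%), with 16.3 per Mb and with Bhlhe40 at 8, Cry2 at 5 and Arntl at 4. BET and elongation factors were counted in 6 of 25 cases (24.0%), with 10.4 per Mb and with Brd3 and Crebbp at 2 each among them.

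Lists of other cell types had lower densities than the myeloid, macrophage and osteoclast lists. The other far MAX regions had the same split, with 11.9 per Mb around myeloid, 11.4 around macrophage and 13.9 around osteoclast genes, against 0.264 around neuronal, 0.854 around hepatocyte, 0 around fibroblast and osteoblast and 4.5 around lymphocyte genes. There were 2.69 I-BET-only regions per other far region around myeloid genes, 1.62 around macrophage and 1.88 around osteoclast genes, against 2.92 around all genes. This ratio was 8.0 around neuronal and around hepatocyte genes, each on 1 other far region, and 2.75 around lymphocyte genes, on 4. It has no value for fibroblast and osteoblast genes. Neuronal genes were counted in 6 of 30 cases (20%), with 2.12 regions per Mb and Dlgap1 and Kcna1 at 2 each. Hepatocyte genes were counted in 3 of 20 cases (15.0%), with 6.83 per Mb and Hnf4a, a hepatocyte transcription factor gene, at 6. Fibroblast and osteoblast markers were counted in 5 of 20 cases (25%), with 4.06 per Mb and Spp1 and Ibsp at 3 each in 1 neighbourhood. Lymphocyte markers were counted in 8 of 20 cases (40.0%), with 12.4 per Mb, Cd79a at 4 and Bcl11b at 3. No set test was made, and nothing is called particular to a list from these shares.

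**Figure D5:**
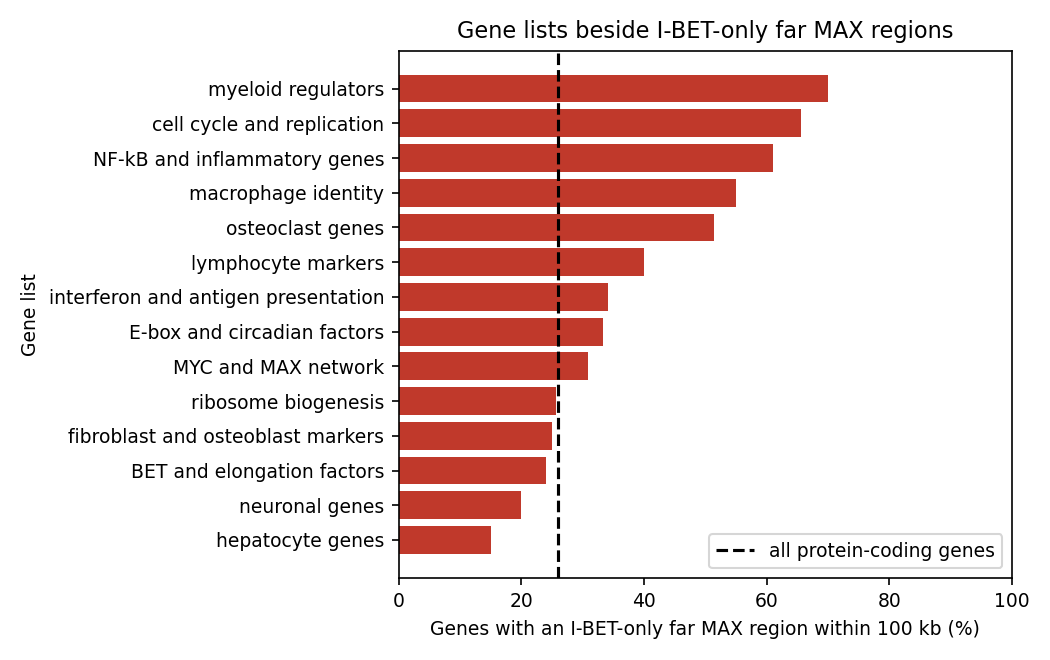
Share of the genes of each list with an I-BET-only far MAX region within 100 kb in percent (horizontal axis), by list (vertical axis), with a dashed line for all protein-coding genes at 26.0%. Myeloid regulators stand highest at 70.0% and hepatocyte genes lowest at 15.0%.

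When only regions above the median score of the I-BET list were counted, the share of all genes was 10.3% in place of 26.0%. Of the myeloid regulators 36.7% were then counted, of NF-κB and inflammatory genes 17.1%, and of cell cycle genes 18.8%. Fibroblast and osteoblast markers, with 4 of 20 genes counted, had a higher share than the last 2 of these lists. Interferon and antigen presentation genes (9.09%) were below the share of all genes, as were neuronal (3.33%), hepatocyte and lymphocyte genes. In gaps that also held a far MAX region of another list, the shares were 9.53% for all genes, 40.0% for myeloid regulators, 43.9% for NF-κB and inflammatory genes, and 0.0% for neuronal genes. This count was added after the data were seen. The other far MAX regions it relies on came to 11.9 per Mb around myeloid and 12.7 around NF-κB and inflammatory genes. They came to 2.19 around all genes and 0.264 around neuronal genes. The filter thus favours the first 2 lists by itself, and nothing is read from these shares.

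The 4518 regions had 2315 different nearest protein-coding genes. Cebpb was nearest for 22, Gas8 for 20 and Tomm20 for 19. Of the 2315 genes 1540 (66.5%) had a MAX peak within 1 kb of a gene end in the I-BET list, against 50.3% of all genes. In untreated cells 750 (32.4%) had one, against 23.7% of all genes, and MYC peaks were at 32 (1.38%) against 1.05%.

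MYC peaks were almost absent from the I-BET-only far regions. Of 4518 regions, 2 overlapped a MYC peak of the untreated list, 5 one of the RANKL list, 5 one of the I-BET list and 0 one of the combined list. Taking 3 counts of 4518 as the limit that a count of 0 allows, the share is up to 0.0664%, and the exact Clopper-Pearson upper limit is 0.0816%. Any MYC list reached 9 of them (0.199%, 0.0911 to 0.378%). Of the 1601 other far MAX regions 1.44% had a MYC peak without treatment, 1.69% under RANKL, 0.5% under I-BET and 0.125% under both, and 34 (2.12%, 1.48 to 2.96%) had one in any treatment. The intervals for any treatment did not overlap. However, the rule leaves out regions with a MAX peak in the untreated, RANKL or combined list. MYC binds DNA with MAX, so this comparison is not independent of the rule, and nothing is read from it. Most overlaps of the other far regions were on the 450 regions present in all 4 lists. These held 20 of the 23 without treatment, 23 of 27 under RANKL, 5 of 8 under I-BET and 2 of 2 under both. Their I-BET peaks had a median rank of 4901, against 25012 for the I-BET-only far regions. The part of peak rank in these overlaps was not tested. The overlaps depend on how both antibodies' lists were called, and the MYC lists are short. Of the 136 MYC peaks under I-BET, 105 are under 100 bp wide.

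The 9 regions with a MYC peak lay 23.9 to 1250 kb from the nearest protein-coding gene, where the median of all 4518 regions was 28.0 kb. The highest-ranked, at rank 7435, was 282 kb from the peroxisome biogenesis gene Pex2 and had MYC peaks in the untreated, RANKL and I-BET lists. A region 368 kb from the chromatin remodelling gene Arid1b had them with RANKL and with I-BET. Regions 76.2 kb from Alkbh8, 263 kb from Mc2r and 1250 kb from Rpia had one with I-BET only. Regions 23.9 kb from Rpp21, 193 kb from Obi1 and 83.6 kb from Gm52481 on chromosome Y had one with RANKL only. A region 38.0 kb from Csf2ra had one in untreated cells only. Of the 9, 6 lay over 100 kb from the nearest peak of any other MAX list, against 16.2% of all 4518.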

How the data were processed

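The authors deposited, for MYC and MAX at each of 4 treatments, a list of peaks with positions, names of joined calls and a score, per the file contents. Per the submitters' processing notes, which give no roles, the tools were MACS2 2.1.1.20160309, Bowtie2 2.3.4.1 and FastQC, and the build was mm10 (GRCm38). Nothing used here states the call thresholds or the use of input. Every deposited line joins calls of sets numbered 3, 5 and 7. The deposited score is the authors' own value, and it was used only to rank peaks within a list. Read depth is unknown, and its effect on list length could not be examined.

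Starts were raised by 1, taking the lists as BED files. The MAX lists were merged with bedtools 2.31.1, and overlap means at least 1 bp. Distances were taken to the extent of 21887 protein-coding genes of the RefSeq table (GRCm38.p6). A gap is the stretch between neighbouring protein-coding genes. Intervals of shares are 95% exact (Clopper-Pearson) and hold for counting error alone. With 1 list per treatment no test was made. The 14 gene lists (411 entries, all matched) and the regions themselves were chosen with earlier results of these data known. No genome was at hand, so motifs were searched in RefSeq promoter windows in place of whole regions. The 4 input libraries were not used here.

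Named are the 20 highest-scored and 10 widest regions, those with a MYC peak, the 10 fullest gaps with ties, up to 4 genes per list, all counted genes of the myeloid and MYC lists, the non-coding genes at the 10 highest-ranked regions on such a gene, and the 3 regions at each end of the distance range. Other non-coding genes, the printed windows, the 5S and tRNA genes and nearest genes by count were picked with their values in view. Some items that fall under these rules are not reported here. Alternatives changed the distance limit, the gene set, merging, score, widths and gene window. The code (Python 3.11.15, numpy 2.4.6, pandas 2.3.3, scipy 1.17.1, matplotlib 3.10.9) was tested on simulated data with 381 planted regions among 1997, of which 381 were found and 0 wrongly.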

Additional observations from a re-analysis of the deposited data

How the results depend on the processing

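The number of I-BET-only far regions, 4518, was 5835 at a limit of 5 kb, 3951 when peaks within 500 bp were merged, and 4467 without the 5S array and chromosome Y, a count added after the data were seen. It was 2497 over 25 kb from protein-coding genes, 1896 over 10 kb from genes of any biotype, 1055 with the I-BET peaks above the median score, and 187 with as many top I-BET peaks as the RANKL list has. The number thus depends on the length of the I-BET list. Density was 2.06 per Mb over 25 kb from genes against 3.2. The planned filter on peaks under 100 bp removed no MAX peak, so it bears on neither the count nor the median rank. The median width was 341 bp over 25 kb against 347 bp.

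Protein-coding genes counted near a region numbered 5682 with a window of 100 kb, 3411 with 50 kb, 8982 with 200 kb, 2246 with regions above the median score, and 2085 without regions in gaps that hold no other MAX region, an alternative added after the data were seen. For the 14 lists under these 4 alternatives, 19 of 56 counts stayed within 1.5 times and 37 did not. The number of regions with a MYC peak was 10 with MYC peaks within 500 bp and 7 without MYC peaks under 100 bp, against 9. Counted by gene, an addition after the data were seen, CACGTG was in 8.73% against 8.07%. The planned motif count in 200 bp around region centres was not run, as no genome was at hand. No paired analysis was possible because each antibody and treatment has 1 list and no result comes from a test. Depth is unknown, so a region missing from a shorter list was not detected there at that list's threshold, which does not show that MAX was absent.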

Other observations

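Few I-BET-only far regions lay on microRNA or immunoglobulin genes. There were 3 on microRNA genes, namely 1 on the pair Mir202 and Mir7686 near Utf1 (rank 29183 in the I-BET list), 1 on Mir6367 near Ifnar1 (rank 18680) and 1 on Mir6236 near Cspg5 (rank 36740), and 5 in immunoglobulin loci. Pseudogenes over 10 kb from protein-coding genes numbered 5928, and 81 of them (1.37%) were on an I-BET-only region, against 580 of 5742 long non-coding RNA genes (10.1%). The median length is 942 bp for these pseudogenes and 9486.5 bp for these long non-coding RNA genes, and the part of length in the shares was not tested.

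Beyond the last or before the first protein-coding gene of a chromosome lay 28 regions, 14 of them on chromosome Y. One of the latter, 38.9 kb from Gm52481, was among the 20 highest-scored regions and lay 234 bp from a peak of another MAX list.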
